A study of Arabidopsis thaliana with 12 samples.

Results

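Messenger RNA of 3 chloroplast assembly factors was followed in Arabidopsis thaliana after leaf cutting. The genes were LPA19 (AT1G05385), the chloroplast rubredoxin gene AT1G54500, also called RBD1, and AT1G22700, also called PYG7. They were taken by their loci from 692 probes that name a single gene, in a table of 3439 probes. Each of the 3 genes had 1 such probe, and 0 probes naming several genes listed them. The genes were chosen by their role, but with their wounded and untreated levels and the fall of LPA19 and AT1G54500 without wounded replicate 4 already known. The differences between the groups are therefore a description, and whether a gene passed the fit across all probes is given below only beside the share of all probes that did.

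All plants were wild type of the Columbia 0 ecotype. The 6 wounded samples came from plants whose leaves had been cut and which were taken 2 days later, and the 6 untreated samples came from plants left uncut. For the untreated plants the labels give no harvest day, so wounding and time of harvest cannot be told apart. The labels name neither the organ that gave the RNA nor whether each array stands for its own plants, and the spread between arrays may therefore be technical.

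Photosystem II and photosystem I are large complexes of protein and pigment in the thylakoid membrane of the chloroplast, which use light to move electrons. Their subunits come from both the chloroplast and the nuclear genome, and nuclear-encoded helper proteins guide them into place without staying in the finished complex. LPA19 is a lumenal relative of the cyanobacterial Psb27 protein and is known to assist processing of the end of the D1 reaction centre protein of photosystem II. RBD1 is a membrane-bound rubredoxin, a small iron protein, needed for photosystem II to accumulate in Arabidopsis, in green algae and in cyanobacteria. PYG7 is a thylakoid protein with tetratricopeptide repeats, related to cyanobacterial Ycf37, and is needed for photosystem I to accumulate.

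Some arrays resembled each other more than their labels alone would give. Over all probes, 5 pairs of arrays correlated at r between 0.953 and 0.985. In the untreated group these were replicates 1 with 2, 3 with 4 and 5 with 6, and in the wounded group replicates 2 with 3 and 5 with 6. Wounded replicate 4 correlated with the other arrays at r between 0.43 and 0.50, where the other 11 arrays had at least 0.876 among themselves. Mean intensities per array lay between 0.983 and 1.09. The differences below are therefore given with and without wounded replicate 4, and the number of arrays limits their precision.

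LPA19 and RBD1 lay lower on every wounded array than on every untreated array, wounded replicate 4 included, while the values of PYG7 overlapped between the groups. LPA19 had a deposited intensity, on a linear scale, of 1.01, 1.08, 0.816, 0.828, 0.881 and 0.896 on untreated arrays 1 to 6. On wounded arrays 1 to 6 it had 0.398, 0.292, 0.411, 0.387, 0.756 and 0.670. The untreated arrays lay close together, wounded 1 to 4 lay far below them, and wounded 5 and 6 lay between, still under the lowest untreated array. Mean intensity of LPA19 was 0.919 ± 0.105 (SD, n = 6) in untreated plants and 0.486 ± 0.183 (SD, n = 6) in wounded plants. In whole plants or organs, fewer cells that express a gene and less of its RNA per cell cannot be told apart.

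RBD1, the rubredoxin of photosystem II assembly, had intensities of 5.62, 5.46, 5.42, 5.09, 4.89 and 4.58 on untreated arrays 1 to 6. On wounded arrays 1 to 6 it had 3.24, 3.0, 2.88, 1.05, 3.75 and 3.75. The groups did not overlap, wounded replicate 4 was far below the rest of its group, and wounded 5 and 6 were again nearest to the untreated arrays. Mean intensity of RBD1 was 5.18 ± 0.393 (SD, n = 6) in untreated plants and 2.94 ± 1.0 (SD, n = 6) in wounded plants, or 3.32 ± 0.409 (SD, n = 5) without wounded replicate 4.

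PYG7, the photosystem I factor, had intensities of 0.301, 0.318, 0.215, 0.197, 0.520 and 0.515 on untreated arrays 1 to 6. On wounded arrays 1 to 6 it had 0.258, 0.174, 0.187, 0.0427, 0.264 and 0.249. Untreated 5 and 6 stood above all other arrays and wounded replicate 4 below all others, while the remaining untreated and wounded arrays lay in 1 common range. Mean intensity of PYG7 was 0.344 ± 0.142 (SD, n = 6) in untreated and 0.196 ± 0.0842 (SD, n = 6) in wounded plants, or 0.226 ± 0.0427 (SD, n = 5) without wounded replicate 4.

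**Figure D1:**
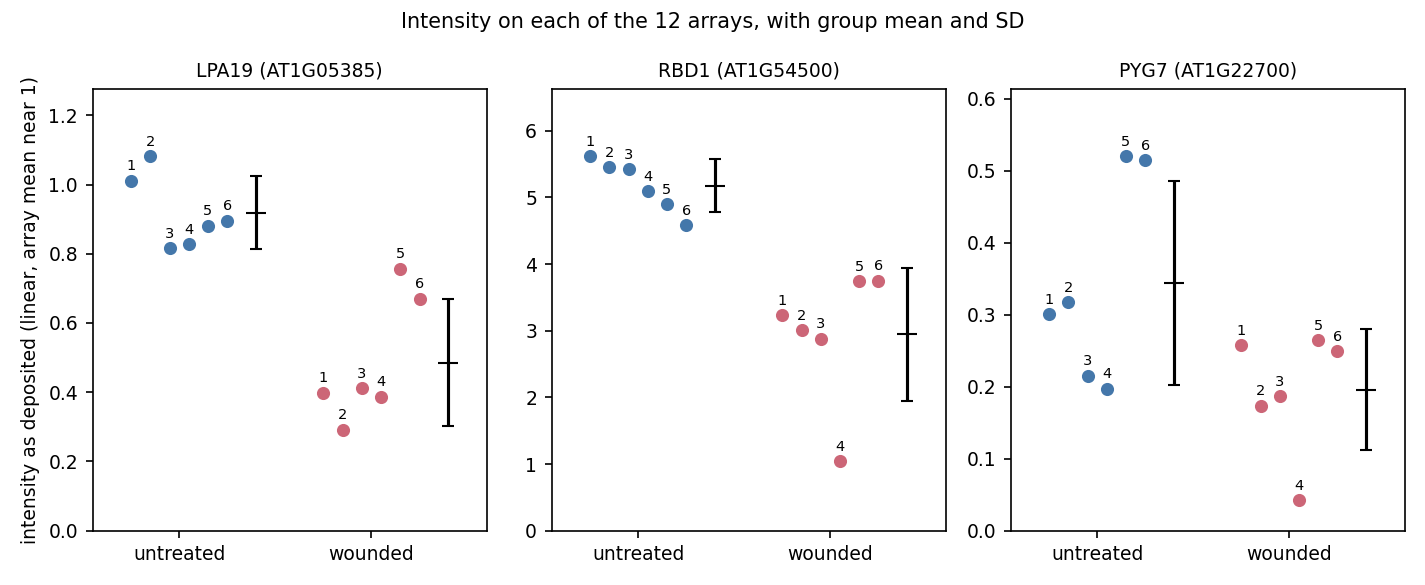
Deposited intensity (linear axis) of the 3 genes on each array, with replicate numbers beside the points and black bars for the group mean ± SD. All 6 wounded points of LPA19 (at most 0.756) and of RBD1 (at most 3.75) sit below all untreated points, while PYG7 overlaps and has untreated 5 and 6 on top at 0.520 and 0.515.

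Before fold changes were taken, intensities were put on the log2 scale and quantile-normalized, which gives every array the same distribution of values. LPA19 then had a log2 difference, wounded minus untreated, of -0.68 ± 0.17 (moderated SE from limma, n = 6 and 6), or 0.62-fold. Without wounded replicate 4 it was -0.64 ± 0.15 (SE, n = 5 and 6), nearly the same value. These errors count alike arrays as independent. With the alike pairs as a random block over the 12 arrays, LPA19 had -0.73 ± 0.39 and RBD1 -0.97 ± 0.32. Over the 11 arrays the block gave -0.68 ± 0.25 for LPA19 and -0.68 ± 0.15 for RBD1. Without the block, the rubredoxin gene AT1G54500 had -0.87 ± 0.23 over the 12 arrays, or 0.549-fold, and -0.67 ± 0.12 over the 11. PYG7 had -0.69 ± 0.47 over the 12 arrays, or 0.621-fold, and -0.23 ± 0.24 over the 11. On this scale the PYG7 difference over the 11 arrays was smaller than its standard error, and it was -0.08 when either untreated 5 or 6 was left out as well. No fit left out both of these arrays.

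In the limma fit across all probes, with Benjamini-Hochberg adjustment, 0 of the 3 genes passed an adjusted p of 0.05 over the 12 arrays. The same held for all 3233 probes tested, of which 0% passed. At an unadjusted p of 0.05, LPA19 and RBD1 were among the 5.94% of probes that were lower over 12 arrays, and among the 11.2% over 11. Without wounded replicate 4, LPA19 and RBD1 passed the adjusted threshold as lower and PYG7 did not, where 1.25% of 3203 probes passed as lower. LPA19 passed narrowly, at an adjusted p of 0.048 in limma. With the values as deposited over these 11 arrays only RBD1 passed, where 81 of the 3203 probes passed as lower. With each array centred on its median 0 of the 3 passed, where 24 probes passed as lower. With the pairs of alike arrays fitted as a random block, 0 of the 3 passed over 12 or over 11 arrays, where 0% of all probes passed. When each further array was left out of the 11 in turn, RBD1 passed in 5 of 11 fits, LPA19 in 1 (the fit without wounded replicate 5) and PYG7 in 0. Between 3131 and 3199 probes were tested in these fits. In the fits where RBD1 passed, 50, 29, 125, 30 and 35 probes passed in either direction, the 30 in the fit where LPA19 passed too. In the other fits 2 to 6 probes passed. Since these genes were chosen with this contrast known, nothing is read from the counts.

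The size of the differences moved with the scaling between arrays. All were negative, which for LPA19 and RBD1 follows from the full separation of the groups on each scale, given below. With the values as deposited, the median log2 difference of all probes was -0.32, against -0.02 after quantile normalization. LPA19 had -0.99 ± 0.24 (SE) with the values as deposited, and -0.65 ± 0.17 when each array was centred on its median. RBD1 had -0.92 ± 0.29 as deposited and -0.57 ± 0.27 after median centring over the 12 arrays. For RBD1 without wounded replicate 4, median centring gave -0.31 ± 0.10, against -0.67 after quantile normalization. PYG7 had -0.92 ± 0.44 as deposited and -0.57 ± 0.43 after median centring over the 12 arrays. Over the 11 arrays it had -0.52 ± 0.27 as deposited and -0.19 ± 0.26 after median centring.

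Set against each array's median, RBD1 came close to overlapping between the groups. Its intensity was between 9.30 and 11.6 times the array median on the untreated arrays. It was 9.02 times on wounded 2 and 8.69 on wounded 3, then 7.85 on wounded 6, 7.82 on wounded 1, 7.75 on wounded 5 and 2.71 on wounded 4. LPA19 stayed further apart, between 1.72 and 1.85 times the median on the untreated arrays and between 0.877 and 1.56 on the wounded ones. PYG7 was between 0.423 and 0.542 times the median on untreated 1 to 4 and between 0.521 and 0.622 on the wounded arrays other than replicate 4. It was thus below the median of the array on all of those, and 1.09 and 1.06 times the median on untreated 5 and 6.

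**Figure D2:**
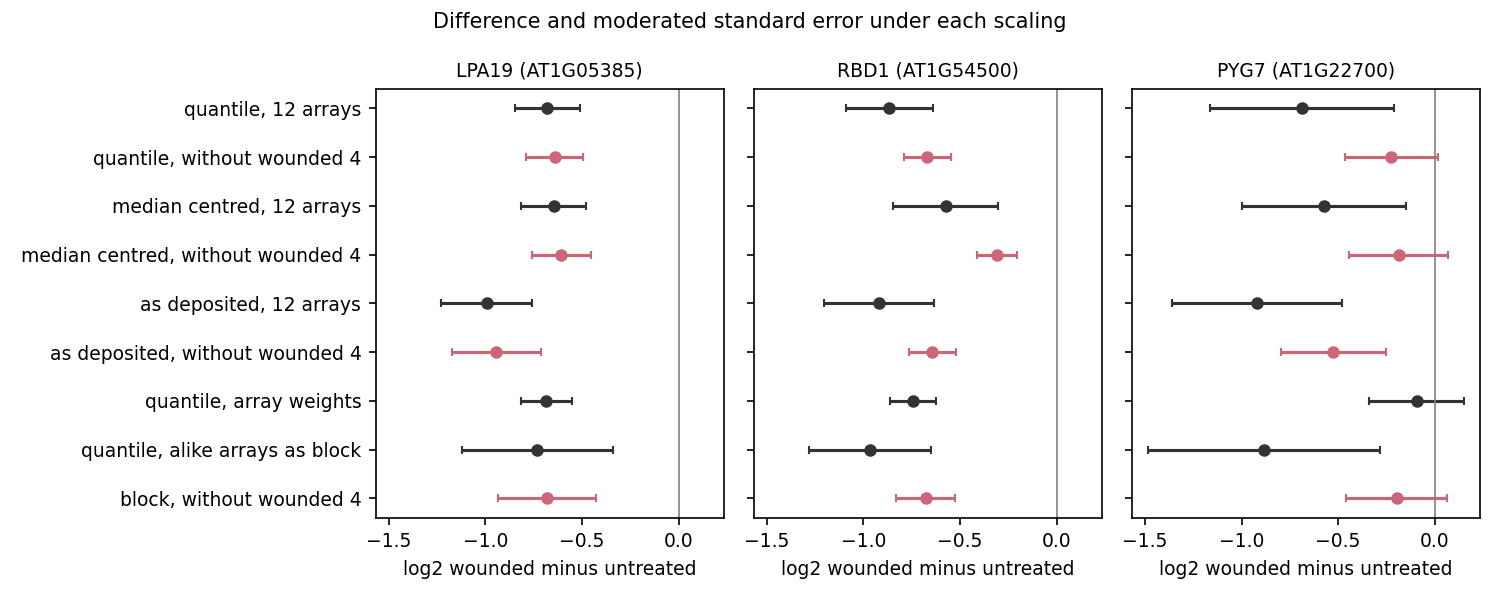
Log2 difference, wounded minus untreated, with its moderated standard error, for each gene under 9 settings, red without wounded replicate 4. LPA19 ranges from -0.64 to -0.68 on the quantile scale without a block, RBD1 shrinks to -0.31 with median centring over 11 arrays, and PYG7 moves from -0.69 to -0.23 when wounded replicate 4 is left out.

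Full separation of the groups, with every wounded array below every untreated one, was then counted over the 3034 probes with a value on all 12 arrays. On the quantile scale it held for 2.27% of probes, on the deposited scale for 4.48% and on the median-centred scale for 1.09%. It held on all of these scales for 0.989% of probes, 30 in number, and LPA19 and RBD1 were both among them. PYG7 did not separate on any scale. This separation was known when the genes were chosen and is a description of them.

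The 3 genes differed in how much they varied within a group. On the quantile log2 scale, the untreated SD of LPA19 was 0.075, and 2.74% of probes had a smaller one, where the median over probes was 0.249. In wounded plants its SD was 0.321 over 6 arrays and 0.344 over the 5 without replicate 4, where the median over probes was 0.302 for those 5. RBD1 had an SD of 0.163 in untreated and 0.187 in the 5 wounded arrays, both below the medians over probes. PYG7 had an untreated SD of 0.564, larger than that of 91.6% of probes, and an SD of 0.132 in the 5 wounded arrays, larger than that of 10.02% of them. With wounded replicate 4 the wounded SD was 0.509 for RBD1 and 1.14 for PYG7, where the median over probes was 0.618. PYG7 thus varied less in wounded than in untreated plants without that array and more with it.

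Alike arrays had close values of PYG7 and RBD1 in every pair, and of LPA19 in some pairs but not in all. On the quantile log2 scale PYG7 differed by at most 0.116 within any of the 5 pairs and RBD1 by at most 0.134, where the median of this largest difference over probes was 0.296. LPA19 differed by up to 0.495, between wounded 2 and 3, and by as little as 0.006, between untreated 3 and 4. The high level of PYG7 on untreated 5 and 6 was shared by both arrays of that pair, at -1.04 and -1.06 on the quantile log2 scale, while untreated 1 to 4 had between -2.25 and -2.03. LPA19 too was highest on untreated 5 and 6 on this scale, at -0.20 and -0.21 against -0.24 on untreated 2, whereas its deposited intensity was highest on untreated 2 and 1. Untreated 5 and 6 were the highest of all arrays for 3.66% of the 3034 probes.

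On the deposited and quantile scales wounded 5 and 6 were the highest wounded arrays for both LPA19 and RBD1. Against the array medians this order held for LPA19, but for RBD1 wounded 2 and 3 were highest, as given above. On the quantile log2 scale LPA19 lay 0.23 and 0.43 below its untreated mean there, and between 0.56 and 1.05 below it on wounded 1 to 4. RBD1 lay 0.48 and 0.46 below its untreated mean on wounded 5 and 6, and between 0.72 and 0.85 below it on wounded 1 to 3. The same order of the wounded arrays was found in 34.8% of the 69 probes with full separation on this scale. Over all probes, the r of wounded 5 and 6 lay between 0.936 and 0.946 against untreated 1 and 2. Against the first 3 wounded arrays it lay between 0.876 and 0.889. What part this likeness has in the order of the wounded arrays was not tested. Wounded replicate 4 was the lowest array for RBD1 and PYG7, as it was for 38.8% of probes, but not for LPA19, which was lowest on wounded 2.

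LPA19 and RBD1 correlated over the pooled arrays, mostly through the difference between the groups, which was known when they were chosen. Over the 11 arrays without wounded replicate 4 their quantile log2 values had a Pearson r of 0.85 and a Spearman rho of 0.73, and r was 0.80 over all 12. After the mean of each group was subtracted, r was 0.43, with -0.47 within the 6 untreated arrays and 0.73 within the 5 wounded ones. PYG7 had an r of 0.29 with LPA19 and of 0.03 with RBD1 over the 11 arrays, which became 0.47 and 0.70 when wounded replicate 4 was added. Because the arrays fall into alike pairs and are not independent, these values are descriptions without a p.

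**Figure D3:**
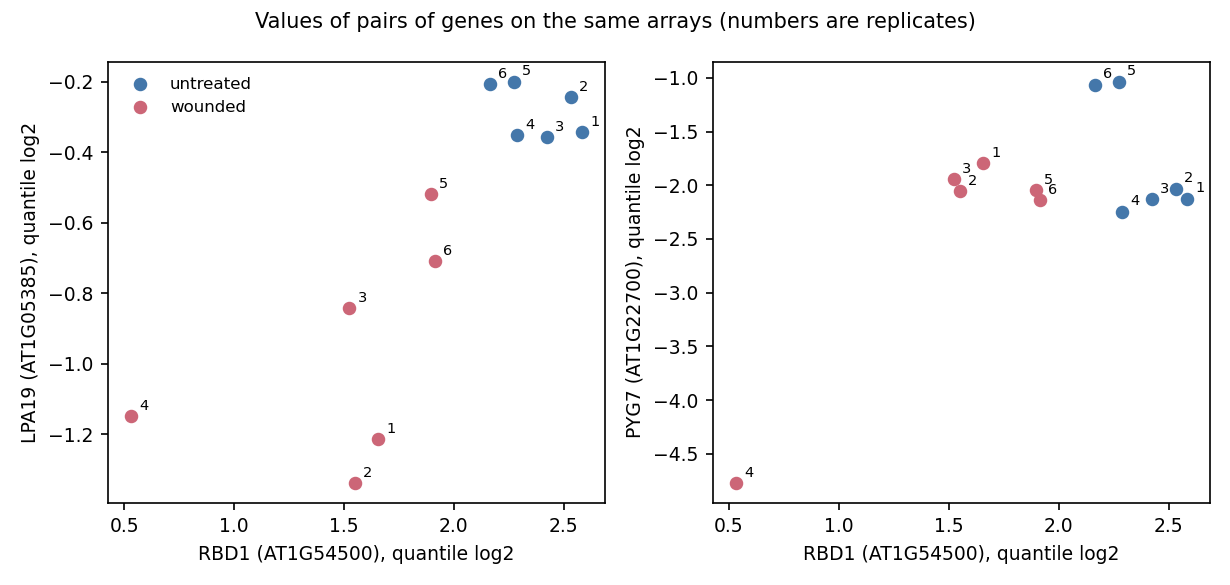
Quantile log2 values of RBD1 (horizontal) against LPA19 (left) and PYG7 (right), 1 point per array with its replicate number. RBD1 and LPA19 place all wounded arrays below and to the left of all untreated ones (r = 0.85 without wounded 4), while PYG7 shows no such order (r = 0.03) apart from wounded 4.

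Ratios of a gene to another on the same array were taken from the deposited values, where a factor common to the whole array cancels. Quantile normalization, which does not scale an array by a single factor, changes such ratios. With the deposited values, the log2 ratio of RBD1 to LPA19 was 0.07 higher on wounded than on untreated arrays, with an SD of 0.154 in untreated and 0.671 in wounded arrays. It was 0.30 higher without wounded replicate 4, with an SD of 0.420 in the 5 wounded arrays. The log2 ratio of PYG7 to LPA19 was 0.07 higher over 12 arrays and 0.42 higher over 11, against an untreated SD of 0.578. The log2 ratio of PYG7 to RBD1 was 0.12 higher over the 11 arrays, against an untreated SD of 0.673. Each of these differences was smaller than the SD of at least 1 group. On the quantile scale RBD1 had the more negative difference over the 12 arrays, as given above, so which of RBD1 and LPA19 differed more depended on the scaling.

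Other genes of the same pathway were few on this array. Of 112 genes in lists of assembly, subunit, electron carrier and marker genes, 9 had a single-gene probe and 8 of these could be tested, the 3 described here included. Probes naming several genes listed 9 of the 112, and are not used. The 5 tested genes beside the 3 assembly factors had a median log2 difference of 0.31 over the 12 arrays and 0.14 over the 11, against -0.02 over all probes. Among these, 0 rose and 0 fell at the adjusted threshold in limma over 12 or 11 arrays, where 0% and 2.22% of probes passed in either direction. At an unadjusted p of 0.05, 0 of the 5 passed in either fit, where 11.6% and 20.8% of probes did. CCB3, an assembly factor of the cytochrome b6f complex, had a value above 0 on only 4 arrays and was not tested. None of the 6 leaf mesophyll markers (Rubisco small subunits, Rubisco activase and carbonic anhydrase) and none of the 4 root markers had a single-gene probe, so the tissue could not be checked from them.

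PSB27 (AT1G03600), a further Psb27 relative in Arabidopsis, known from photosystem II repair, varied widely in both groups. Its intensity lay between 0.730 and 2.48 in untreated plants and between 0.525 and 2.46 in wounded plants, so the groups overlapped over nearly their whole range. Its log2 difference was 0.31 ± 0.39 (SE) over the 12 arrays and 0.25 ± 0.41 over the 11, against -0.68 and -0.64 for LPA19. The difference between these genes was not tested. Whether the 2 probes tell the transcripts apart was not tested either, since probe sequences were not used here.

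Among subunits of the finished photosystems, no value reached the threshold. Over the 12 arrays the small photosystem II subunit genes PSBY and PSBW had log2 differences of 0.63 ± 0.32 (SE) and -0.21 ± 0.17. PSAN, a lumenal subunit of photosystem I, had 0.45 ± 0.60, and LHB1B2, a chlorophyll-binding antenna protein of photosystem II, -0.68 ± 0.64. The sign of PSBW depended on the scaling, and was 0.21 ± 0.27 without further scaling. The standard errors of PSAN and LHB1B2 were larger than those of LPA19 and RBD1, and a difference of the size seen for these factors would lie near 1 such error.

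**Figure D4:**
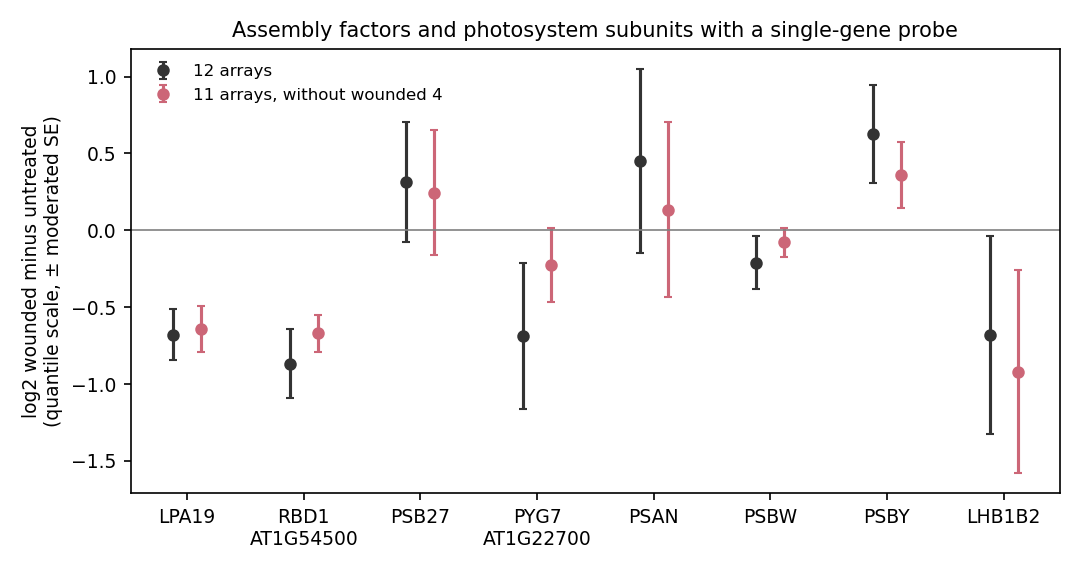
Log2 difference, wounded minus untreated, on the quantile scale with moderated standard errors for the 8 tested assembly factors and photosystem subunits, black over 12 arrays and red over 11. LPA19 and RBD1 lie below 0 by more than their bars in both fits, which count alike arrays as independent, PYG7 moves to -0.23, and PSB27 lies at 0.31 and 0.25.

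The probes of LPA19 and RBD1 have nearby numbers in the table, 4071 and 4108, and that of PYG7 is number 920. Around LPA19, the 100 tested probes with the nearest numbers had a median log2 difference of -0.09 over the 12 arrays and -0.11 over the 11. Around RBD1 these medians were -0.16 and -0.09, and around PYG7 0.09 over the 12 arrays. Over the 12 arrays, 7 of the 100 neighbours of LPA19 and 2 of those of RBD1 had a lower log2 difference than the gene itself, close to the 7.64% and 3.22% of all probes. Over the 11 arrays the counts were 6 and 5, against 4.65% and 3.9% of all probes. For PYG7 they were 2 over the 12 arrays and 25 over the 11, against 7.36% and 26.4%. As their probe numbers are close, the neighbours of LPA19 and of RBD1 overlap, and may each include the other gene. The counts for these genes are therefore not separate from each other. Other traits were more frequent around LPA19 and RBD1 than over all probes. Every wounded array lay below every untreated one for 5 of 100 neighbours of LPA19 and 5 of 99 of RBD1. This was 1 of 96 for PYG7, against 2.27% of all probes on the quantile scale. Untreated 5 and 6 were the highest arrays for 8, 10 and 3 of these neighbours, against 3.66%. Whether probe number reflects a place on the array, and what part it has in these values, was not tested.

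The genes whose quantile log2 values followed each factor most closely over the 11 arrays were sought among 612 other single-gene probes. For LPA19 they were AT1G27660 (r = 0.92), AT1G18290 (r = 0.92) and AT2G28755 (r = 0.89). For RBD1 they were the MADS-box gene AGL54 (r = 0.97), AT4G22490 (r = 0.97) and AT1G17160 (r = 0.95). After the group means were subtracted, AGL54 and AT1G17160 still had r values of 0.92 and 0.93 with RBD1, but neither was then among the 3 genes most like it. For PYG7 they were AT5G05400 (r = 0.92), AT2G19280 (r = 0.89) and AT5G02050 (r = 0.88), of which the last 2 had r values of -0.60 and -0.57 over all 12 arrays. These lists are descriptions over few arrays that fall into pairs.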

How the data were processed

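The authors deposited intensity values on a linear scale, none below 0, for 12 arrays. The sources used here name neither the array type nor the background correction or scaling. Probes were named from GEO's platform annotation, which can be outdated, and symbols were brought up to date with RefSeq genes (TAIR10.1) for 690 of 692 single-gene probes. Coordinates are left out because the table states no build.

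Values of 0 were treated as missing, the others log2-transformed and quantile-normalized. Probes with at least 4 values per group were fitted in R 4.3.3 with limma 3.58.1 (lmFit, eBayes), using two-sided tests and Benjamini-Hochberg adjustment over all probes. The fit was tested on simulated data with independent arrays. These held neither alike pairs nor an array standing apart, so they do not show how the fit behaves with those. No pairing of the groups by replicate number was seen, so the main fit used no block.

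The genes and lists were chosen with earlier results of these data known, among them the standing apart of wounded replicate 4 and the alike arrays. The genes named are the 3 factors, the 3 single-gene probes most correlated with each, and up to 4 tested members of each list with the smallest p. Further scalings without wounded replicate 4, and leaving out a further array, were added after seeing the data. Figures were drawn with matplotlib 3.10.9.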

Additional observations from a re-analysis of the deposited data

Results flagged for a closer look

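Among the 8 tested genes, a single array lay far from the other 5 of its group in 5 cases, all in wounded plants. A rate of about 1 in 20 groups would hold for independent arrays and genes. It cannot be set against this count, since arrays fall into alike pairs and all cases but PSB27 are the same array, wounded replicate 4. That array was the lowest for 38.8% of probes, and the share of all probes with such a gap was not counted. Wounded replicate 4 was such an array for AT1G54500, the lowest, where its gap to the next array was 0.717 of the range of the group, and for AT1G22700, the lowest with a gap of 0.884. It was also the lowest for PSBW, with a gap of 0.735, and the highest for PSBY, with a gap of 0.698. For PSB27 it was wounded replicate 1, the lowest with a gap of 0.717 of the range. LPA19 had no such array, and its largest gap was 0.233, at wounded replicate 5.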

How the results depend on the processing

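The log2 differences of LPA19, AT1G54500 and AT1G22700 were negative under all 38 alternatives run. Leaving out 1 of the 12 arrays in turn gave -0.77 to -0.60 for LPA19, -0.95 to -0.67 for AT1G54500 and -0.82 to -0.23 for AT1G22700. Leaving out a further array of the 11 gave -0.74 to -0.54, -0.72 to -0.62 and -0.32 to -0.08. With the values as deposited LPA19 had -0.99 over 12 arrays and -0.94 over 11, and with median centring over 11 arrays AT1G54500 had -0.31. With the replicate number as a block (replicate block) the values were -0.68, -0.87 and -0.69, and 0 of the 3 genes and 0 probes passed. That block gave 0 probes in place of 71 over the 11 arrays. No pairing by number was seen. The deviations of same-numbered arrays from their group means correlated at r between -0.36 and 0.15, and 0 of 6 correlated best with their own number. With alike pairs and wounded replicate 4 among the arrays, these values cannot exclude a pairing. The probes passing numbered between 0 and 71 with 1 array left out, 7 with the values as deposited, 1 with log2(value + 0.1), 179 with array weights, 87 as deposited over 11 arrays and 72 with median centring over 11, against 0. Over 11 arrays 31 were higher and 40 lower, with 6 and 81 as deposited and 48 and 24 with median centring. Leaving out a further array of the 11 gave 2 to 125 probes. Of the 3 genes, between 0 and 2 passed with 1 array left out, 2 with array weights and 1 as deposited over 11 arrays, and 0 to 2 with a further array of the 11 left out. Of the 3 genes most like each factor, 2, 1 and 0 stayed for LPA19 with all 12 arrays, with group means subtracted and with Spearman's rho. For AT1G54500 1, 0 and 2 stayed, and for AT1G22700 0, 2 and 0. The causes were not tested. Signal over background is not in the table, so how it limits the dim AT1G22700 could not be judged.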
